A study of Mus musculus with 6 samples.

Results

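Polycomb repressive complex 2 (PRC2) is read here through 9 genes: Ezh1, Ezh2, Eed, Suz12, Jarid2, Aebp2, Mtf2, Phf1 and Phf19. They were taken by exact gene symbol from the feature list of the joined matrix, and 9 of 9 were found among 32285 genes. The nuclei came from the forebrains of 6 untreated mouse littermates at P16, 3 WT and 3 Npc1-/-, by droplet single-nucleus RNA-seq with capture of transcript 3′ ends. The Npc1-/- mice carried the null allele Npc1nih in every cell, and were F1 hybrids of BALB/cJ and C57BL6/J carriers. Loss of NPC1, a cholesterol exporter of late endosomes and lysosomes, causes Niemann-Pick C disease. A barcode suffix marks the library of each nucleus, but the labels used here give no key from suffix to mouse. WT and Npc1-/- nuclei were therefore not compared, and every value below pools both genotypes.

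PRC2 places methyl groups on histone H3 to give H3K27me3, a mark of silenced genes. EZH1 and EZH2 are alternative catalytic subunits, of which EZH2 is the one usually linked to dividing cells and EZH1 to cells at rest. SUZ12 holds the complex together, and EED binds existing H3K27me3 and raises the activity of the enzyme. Accessory proteins bring the core to chromatin in either of 2 forms, one with JARID2 and AEBP2 and the other with a Polycomb-like protein (PHF1, MTF2 or PHF19). In the brain, EZH2 is known as a regulator of neural progenitors and of their entry into the oligodendrocyte lineage. The study itself followed H3K27me3 in oligodendrocytes. It reported lower Ezh2 RNA in immature oligodendrocytes of Npc1-/- mice, and less EZH2 protein in their purified oligodendrocyte lineage cells. The levels below pool both genotypes and cannot show this difference.

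The 6 libraries held 8217 to 16118 barcodes and 51343653 to 107583300 UMIs (unique molecular identifiers, each one captured transcript), with a median of 4469 to 5439 UMIs a nucleus. Of 75245 barcode sequences, 631 (0.839%) occurred in more than 1 library. Nuclei were assigned to classes by marker lists that hold no PRC2 gene, and 39468 of 75867 (52.0%) passed a gate for 1 of 18 classes. A class is called by the markers that gated it and is "X-like" in that sense throughout. The same markers gated the nuclei, so a check against them is not independent. In 16 of the 18 gates, 8 or more markers were highest in their own class. The sum of the OPC markers was 1.15 times as high in OPCs as in committed precursors, the next class. That of the excitatory neuron markers was 1.68 times as high in its own class as in microglia. The newly formed oligodendrocyte gate was weaker, with 5 of 10 markers highest there, and Enpp6 stood at 398 CPM (counts per 1000000) in it against 544 CPM in the committed precursor gate. For thalamic neurons the number was 5 of 8. Gate sizes differed between libraries, from 28 to 268 nuclei for newly formed and from 80 to 648 for mature oligodendrocytes. Levels over all libraries therefore weight the libraries differently from class to class. The part of each genotype in a class is not known and may differ between classes. A list of 8 neuronal genes was counted in every class, with a sum of 10043 CPM in astrocytes, the lowest class, and 48368 CPM in thalamic neurons. How much of this sum was RNA of other cells was not tested.

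Sequence near the start sites is shown for the members on which the results turn: the pair of catalytic genes, and the 3 genes whose highest class was that of dividing nuclei. Each stretch is from RefSeq (GRCm38.p6), 5′ to 3′ on the strand of the gene. Windows of 250 bases before to 50 after each RefSeq start (32851 in all, 13 of them for the 9 members) were searched on both strands for 3 sets of words: 4 E2F words (TTTGGCGC, TTTCGCGC, TTTCCCGC and TTTGCCGC), the NRF1 word, shown in capitals below, and the CCAAT box. The Ezh2 stretch is chr6:47595059-47595183 (minus strand), with 2 CCAAT boxes in capitals, 1 of them on the opposite strand. Upstream is by the RefSeq start, and all Ezh2 stretches shown lie inside the gene interval given below, which is from GENCODE. The next Ezh2 stretch, chr6:47595177-47595203 (minus strand), lies just upstream, overlaps the first at its 3′ end and has the NRF1 word in capitals. The Ezh1 stretch, chr11:101226464-101226588 (minus strand), has its NRF1 word in capitals.
Ezh2 upstream: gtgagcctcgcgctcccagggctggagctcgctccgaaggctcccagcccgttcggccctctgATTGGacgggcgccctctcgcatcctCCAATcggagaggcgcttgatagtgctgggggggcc
Ezh2 NRF1 word: tgtcactcGCGCACGCGCtggtgagcc
Ezh1 upstream: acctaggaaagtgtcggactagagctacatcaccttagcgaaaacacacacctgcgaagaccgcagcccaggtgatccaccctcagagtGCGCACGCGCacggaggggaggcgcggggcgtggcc

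An E2F word, the type bound by a family of cell cycle transcription factors, was found for 3 of the 9 members, Ezh2, Suz12 and Phf19. By window this was 3 of the 13 member windows, against 2.26% of all windows. It is in capitals in the stretches below, which are chr6:47595011-47595035 (minus strand) for Ezh2, chr11:79992876-79992900 (plus strand) for Suz12 and chr2:34914167-34914196 (minus strand) for Phf19, where the word runs on the opposite strand. In Ezh2 it begins at position 4 after the start, while those of Suz12 and Phf19 lie 219 and 208 bases upstream.
Ezh2 start: ttgctgcgTTTGGCGCtcggtccgg
Suz12 upstream: cgacccctcatTTTCCCGCgaattc
Phf19 upstream: cgtcaataattcGCGGGAAAacgcgaaaaa
The NRF1 word was held by 2 members, Ezh2 at 165 and Ezh1 at 36 bases upstream (2 of 13 member windows), and by 4.60% of all windows. CCAAT was present for 6 members (7 of 13 member windows) and in 37.4% of all windows. A match is a description of the letters, not evidence of binding.

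Ezh2 (ENSMUSG00000029687, chr6:47530139-47595341, minus strand), the catalytic subunit linked to division, was highest in dividing nuclei at 165 CPM (95% Poisson interval 155 to 175, 1109 UMIs). CPM is UMIs of a gene per 1000000 UMIs of its class, and fewer transcripts cannot be told apart from more RNA of other genes. Intervals cover counting error only, and a range after a CPM value that is not called an interval runs from the lowest to the highest library. Library by library, dividing nuclei had 131 CPM at the lowest, 161 at the median and 259 at the highest. Mature oligodendrocytes, which do not divide, came second at 111 CPM (interval 105 to 117), with libraries from 95.6 to 131 and a median of 106 CPM. Newly formed oligodendrocytes followed at 95.8 CPM (interval 87.3 to 105), with libraries from 72.3 to 106 and a median of 89.6 CPM. In each library, dividing nuclei stood above mature oligodendrocytes and mature above newly formed oligodendrocytes. At the other end were 4 classes of neurons. Striatal projection neurons had 31.8 CPM (libraries 28.9 to 35.1) and cortical interneurons 26.0 CPM (23.8 to 28.9). Thalamic neurons had 20.3 CPM (18.5 to 21.8), and excitatory neurons were lowest at 17.7 CPM (15.4 to 19.2, median 18.1).

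Between these ends lay 11 classes from astrocytes at 65.1 CPM (55.4 to 75.4 by library) to choroid plexus at 34.2 CPM (17.5 to 49.4). Of the 17 neighbouring pairs in the order, 6 were separated, meaning that the interval of their ratio was off 0 on the log2 scale and all 6 libraries had the same order. These were the 3 steps at the top of the order and the 3 at the bottom. The bottom place depended on the scaling, since thalamic neurons were lowest with TMM scaling (trimmed mean of M values, 22.4 CPM) and microglia by UMIs per nucleus. No neighbours from astrocytes down to striatal projection neurons were separated. OPCs (oligodendrocyte progenitors outside the dividing gate) had 55.8 CPM (52.3 to 61.1), committed precursors 63.5 CPM (46.0 to 98.2) and GABAergic neuroblasts 63.3 CPM (51.4 to 69.1). The highest class had 9.29 times the Ezh2 level of the lowest, the widest spread of the 8 members above 0 in every class. Of 13223 genes, 17.9% had a spread as large. Here and below, such percents compare spreads with 1 CPM added to each level, which is 8.84-fold for Ezh2.

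**Figure D1:**
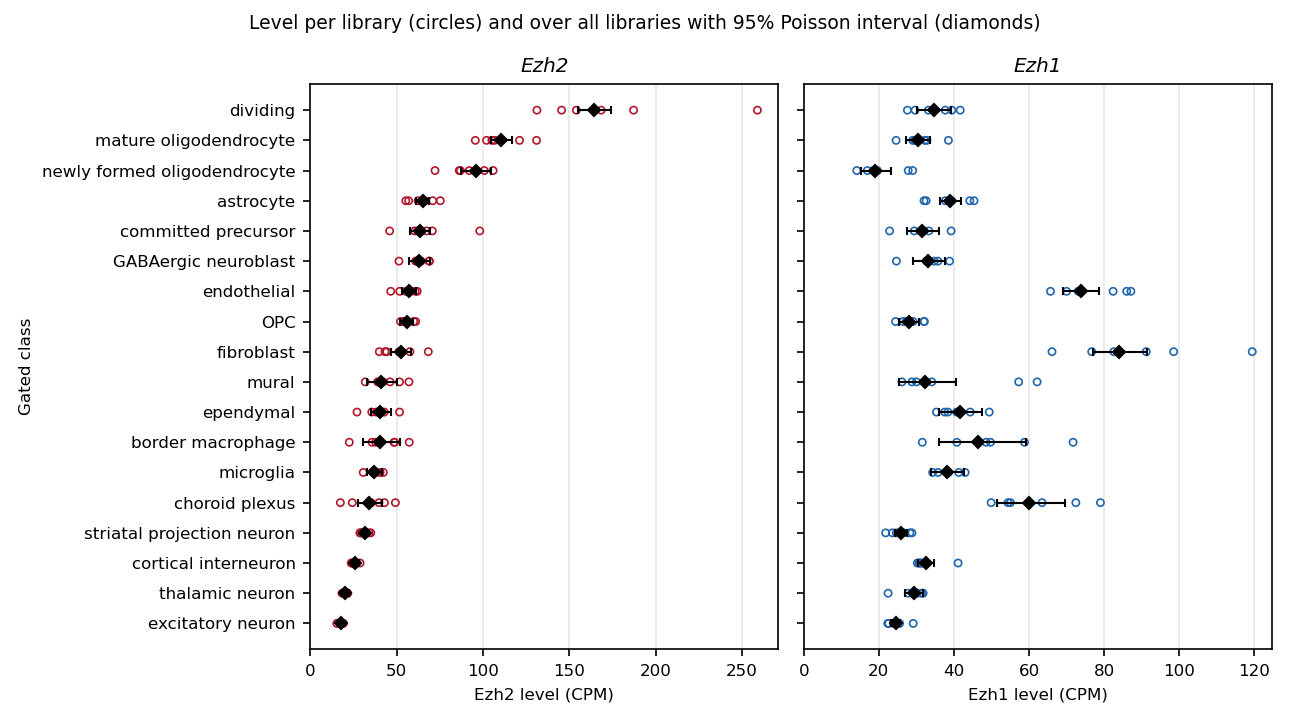
Level of Ezh2 (left) and Ezh1 (right) in CPM on the horizontal axes for the 18 gated classes on the vertical axis, ordered by Ezh2. Circles are the 6 libraries, diamonds the level over all libraries and bars its 95% Poisson interval; Ezh2 falls from 165 CPM in dividing nuclei to 17.7 CPM in excitatory neurons, while Ezh1 is highest at 83.9 CPM in fibroblasts and lowest at 18.9 CPM in newly formed oligodendrocytes.

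The Ezh2 level of the dividing class depended on which nuclei were counted. The gate, at least 4 of 16 division markers, favours deeply sequenced nuclei: the mean was 9840 UMIs and the median 5474, and 21.0% of the class was in the top 10% of doublet scores of its library. With nuclei of 2000 to 8000 UMIs only, the level was 284 CPM, and without the top doublet scores it was 202 CPM. Dividing nuclei were the highest class for Ezh2 in 12 of 12 alternatives. Replication genes were also highest there, with a sum over 10 genes of 151 CPM against 58.4 CPM in OPCs and 20.7 CPM in excitatory neurons.

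Ezh1 (ENSMUSG00000006920, chr11:101191115-101226463, minus strand), the other catalytic subunit, followed a different order. Fibroblasts were highest at 83.9 CPM (interval 76.9 to 91.3), with libraries from 66.1 to 119 and a median of 86.9 CPM. Endothelial cells had 73.7 CPM (65.7 to 87.1 by library) and choroid plexus 59.9 CPM (49.9 to 79.0). These barrier and vessel classes were the only neighbours separated in the Ezh1 order, fibroblasts from endothelial cells and endothelial cells from choroid plexus (2 of 17 pairs). By UMIs per nucleus choroid plexus, not fibroblasts, was highest. Newly formed oligodendrocytes were lowest at 18.9 CPM (interval 15.3 to 23.2, 92 UMIs), with libraries from 14.1 to 29.0 and a median of 19.1 CPM. Neurons did not stand high in Ezh1 by CPM. Excitatory neurons had 24.5 CPM, striatal projection neurons 25.9, thalamic neurons 29.3 and cortical interneurons 32.6. This depended on the scaling. By UMIs per nucleus excitatory neurons stood above astrocytes, with a log2 ratio of astrocytes over excitatory neurons of -0.67 (-0.79 to -0.54). Dividing nuclei had 34.6 CPM (27.6 to 41.7), in the middle of the range. The spread from highest to lowest class was 4.43-fold, and 35.6% of genes had one as large. Across the 18 classes, the log2 levels of Ezh1 and Ezh2 had a Pearson r of -0.00095, given as a description since all classes share the same libraries.

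The balance of the catalytic pair was taken as the share of Ezh1 in the sum of Ezh1 and Ezh2 UMIs. Both counts come from the same nuclei, so the class total drops out of the share and its value can be set between classes. The share does not say how many molecules of each transcript a nucleus held, since 3′ capture can differ between the genes. Over all nuclei Ezh1 made up 46.8% of the pair (46.3 to 47.4, Clopper-Pearson 95%). The range after a share below is this interval, unless it is given by library.

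Newly formed oligodendrocytes had a share of 16.5% (13.5 to 19.8), with libraries from 12.3% to 27.8% and a median of 17.6%. Dividing nuclei had 17.4% (15.4 to 19.5), from 13.9% to 20.2% by library. The intervals of these classes overlapped, and at 2000 to 8000 UMIs the share of dividing nuclei was 8.74%, so no order is read between them. Next were mature oligodendrocytes at 21.5% (19.6 to 23.6), from 19.4% to 25.5%. OPCs had 33.3% (30.7 to 36.1) and committed precursors 33.2% (29.7 to 36.9). Neuroblasts had 34.4% (30.8 to 38.1), astrocytes 37.5% (35.3 to 39.6) and striatal projection neurons 44.9% (42.9 to 47.0). In these 8 classes the interval was below 50% and no library exceeded 50%. Ezh1 gave the larger part in 6 classes, in all 6 libraries each: cortical interneurons (55.6%), endothelial cells (56.3%), excitatory neurons (58.0%), thalamic neurons (59.0%), fibroblasts (61.5%) and choroid plexus (63.7%). For mural cells, ependymal cells, microglia and border macrophages the interval included 50%. Mature oligodendrocytes had a low share with an Ezh1 level that was not low: 30.4 CPM lay between those of OPCs (27.9 CPM) and committed precursors (31.6 CPM), with overlapping library ranges.

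**Figure D2:**
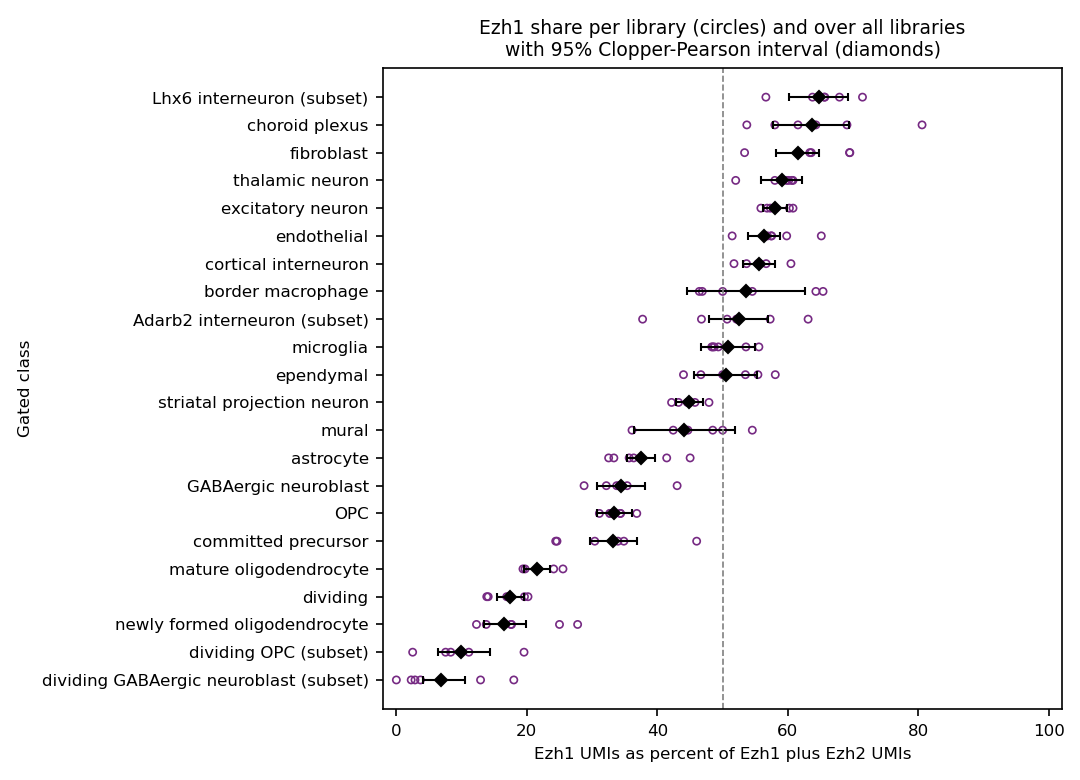
Ezh1 UMIs as percent of Ezh1 plus Ezh2 UMIs (horizontal axis) in the 18 classes and 4 subsets (vertical axis). Circles are libraries, diamonds the share over all libraries with its Clopper-Pearson 95% interval, and the dashed line marks 50%; oligodendrocyte lineage and dividing nuclei lie left of it, from 6.82% in dividing neuroblasts to 33.3% in OPCs, and excitatory and thalamic neurons right of it.

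Subsets within the gates widened the range. Dividing neuroblasts (87 nuclei) had an Ezh1 share of 6.82%, 18 of 264 UMIs, and dividing OPCs (191 nuclei) one of 9.88% (6.43 to 14.3), 24 of 243 UMIs. Dividing endothelial cells (76 nuclei) had 36.4% (30 to 43.3), the highest of the dividing subsets. Cortical interneurons also differed by origin. Lhx6 interneurons, of the medial ganglionic eminence, had a share of 64.8% (60.2 to 69.2), above 50% in 6 of 6 libraries. Adarb2 interneurons, of the caudal ganglionic eminence, had 52.5% (47.9 to 57.0), above 50% in 4 of 6. The interneuron groups stood apart in Ezh2, at 16.04 CPM (10.7 to 19.8 by library) in Lhx6 and 33.4 CPM (23.9 to 38.3) in Adarb2 nuclei, with no overlap between the libraries of the groups. Their Ezh1 levels were 29.5 CPM (25.9 to 33.4) and 36.9 CPM (22.7 to 51.4), and overlapped.

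Suz12 (ENSMUSG00000017548, chr11:79993106-80034123, plus strand), the scaffold of the core, was highest in dividing nuclei at 120 CPM (interval 112 to 129), with libraries from 111 to 145 and a median of 122 CPM. Astrocytes followed at 103 CPM (88.2 to 119 by library), then endothelial cells at 96.3 CPM and microglia at 92.8 CPM. Excitatory neurons were lowest at 46.0 CPM (42.5 to 50.5), below thalamic neurons at 51.4 CPM. Only the first and the last step of the order were separated, and the last depended on the scaling: thalamic neurons were lowest with TMM (56.5 CPM) and mural cells by UMIs per nucleus. Mature oligodendrocytes, second in Ezh2, had 66.9 CPM of Suz12 (54.9 to 79.0), below OPCs at 73.9 CPM (68.2 to 80.3), and their library ranges overlapped.

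Eed (ENSMUSG00000030619, chr7:89954654-89980983, minus strand), the reader of the mark, was highest in microglia, the resident macrophages of the brain, at 61.1 CPM (interval 55.7 to 66.8). Libraries 5 and 6 stood at 85.1 and 83.7 CPM and the other 4 between 52.5 and 57.4 CPM, all 6 above the fibroblast value of the same library, and fibroblasts came next at 42.2 CPM. No other step was separated. Dividing nuclei had 41.2 CPM (37.5 to 45.03), and the lowest levels were those of excitatory neurons at 23.5 CPM and cortical interneurons at 22.5 CPM (20.4 to 26.6). Both ends of the Eed order depended on the scaling. By UMIs per nucleus dividing nuclei were highest and mural cells lowest, and microglia stood below excitatory neurons. With TMM scaling microglia stayed highest (52.2 CPM) and ependymal cells were lowest (23.2 CPM). A second gene, Gm45120, overlaps Eed on the same strand, so reads could be split between them. The spread of Eed was 2.71-fold and that of Suz12 2.62-fold, as large in 60.1% and 61.5% of genes.

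**Figure D3:**
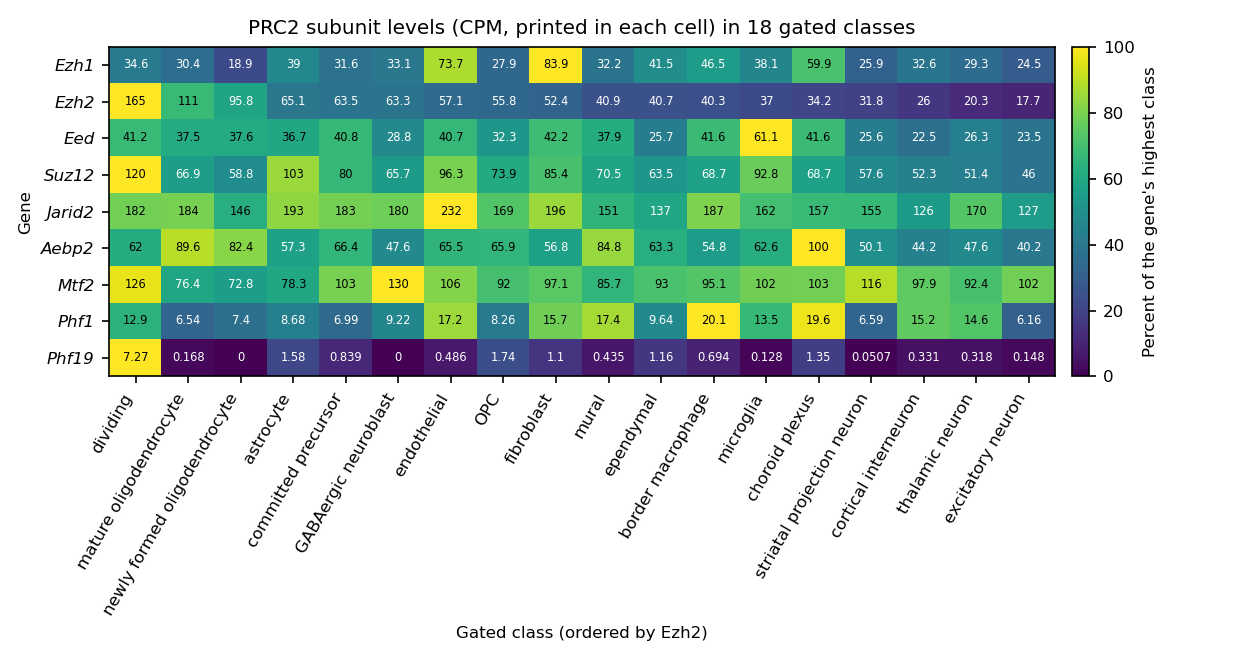
Level of each of the 9 genes (rows) in the 18 gated classes (columns, ordered by Ezh2), printed in CPM in each cell and coloured as percent of the highest class of that gene. The brightest cell of Ezh2, Suz12 and Phf19 is that of dividing nuclei; Ezh1 is brightest in fibroblasts, Eed in microglia, Jarid2 in endothelial cells, Aebp2 in choroid plexus, Mtf2 in neuroblasts and Phf1 in border macrophages.

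Jarid2 (ENSMUSG00000038518, chr13:44729474-44921643, plus strand), which recruits PRC2 and is itself methylated by it, varied little. Endothelial cells were highest at 232 CPM (210 to 259 by library) and cortical interneurons lowest at 126 CPM (116 to 139), a spread of 1.83-fold that 86.9% of genes equalled or passed. Endothelial cells were separated from the next class, fibroblasts at 196 CPM, and dividing nuclei had 182 CPM (152 to 210). Both ends of the Jarid2 order depended on the scaling. By UMIs per nucleus dividing nuclei were highest and microglia lowest. With TMM scaling endothelial cells stayed highest (208 CPM) and ependymal cells were lowest (124 CPM).

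Aebp2 (ENSMUSG00000030232, chr6:140622663-140678472, plus strand), the zinc finger partner found in the same form of the complex, was highest in choroid plexus at 100.2 CPM (74.7 to 130). Mature and newly formed oligodendrocytes had 89.6 CPM (66.9 to 101) and 82.4 CPM (54.8 to 105), against 65.9 CPM (61.2 to 69.5) in OPCs. Excitatory neurons were again lowest, at 40.2 CPM (35.9 to 42.8). No neighbours in the Aebp2 order were separated. With TMM scaling mature oligodendrocytes were highest (95.8 CPM) and border macrophages lowest (45.3 CPM). Microglia were lowest by UMIs per nucleus, and cortical interneurons at 2000 to 8000 UMIs.

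Mtf2 (ENSMUSG00000029267, chr5:108065674-108109004, plus strand), a Polycomb-like protein that binds unmethylated CpG DNA, had an order unlike that of Aebp2. GABAergic neuroblasts had 130 CPM (106 to 152) and dividing nuclei 126 CPM (116 to 129), and 0 of 17 neighbouring pairs were separated. The top place was not stable: dividing nuclei took it at 2000 to 8000 UMIs (144 CPM) and by UMIs per nucleus, and striatal projection neurons with TMM scaling (140 CPM). The last positions were those of astrocytes at 78.3 CPM, mature oligodendrocytes at 76.4 CPM and newly formed oligodendrocytes at 72.8 CPM (47.3 to 90.3). With TMM scaling (73.5 CPM) and by UMIs per nucleus, mural cells were lowest. Among neurons, striatal projection neurons had 116 CPM, excitatory neurons 102.4 CPM, cortical interneurons 97.9 CPM and thalamic neurons 92.4 CPM, the last next to OPCs at 92.0 CPM. The spread was 1.79-fold, as large in 88.7% of genes.

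Phf1 (ENSMUSG00000024193, chr17:26933052-26937908, plus strand), another Polycomb-like protein, was sparse, with 2564 UMIs in the gated nuclei. The highest values rested on few counts, 20.1 CPM in border macrophages (29 UMIs) and 19.6 CPM in choroid plexus (58 UMIs). Both ends of the Phf1 order were unstable, with the same highest class in 7 of 12 alternatives and the same lowest in 7. Choroid plexus was highest under the stricter gate, at 2000 to 8000 UMIs and with TMM scaling, and thalamic neurons by UMIs per nucleus. Of 17 neighbouring pairs, 0 were separated. Endothelial cells had 17.2 CPM from 212 UMIs (13.2 to 20.2 by library), cortical interneurons 15.2 CPM (13 to 17.5) and excitatory neurons 6.16 CPM (3.81 to 8.77). Interneuron and excitatory libraries did not overlap. Over all nuclei, libraries 5 and 6 had the lowest Phf1, 7.43 and 7.30 CPM, against 10.5 to 11.3 CPM in the other 4. On the same strand, Phf1 overlaps Mir6968.

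Phf19 (ENSMUSG00000026873, chr2:34893757-34914026, minus strand), the third Polycomb-like protein, was the sparsest member and was highest in dividing nuclei: 49 of its 166 UMIs in gated nuclei fell in this class of 685 among 39468. Dividing nuclei had 7.27 CPM (interval 5.38 to 9.61), with libraries from 5.15 to 12.7 with a median of 7.57 by library. Astrocytes had 1.58 CPM (31 UMIs), OPCs 1.74 CPM (25 UMIs) and excitatory neurons 0.148 CPM (10 UMIs). No library of the other 17 classes reached 5.15 CPM, the lowest value of a dividing library. No UMI was counted in newly formed oligodendrocytes or neuroblasts, which at this depth allows levels of up to 0.617 and 0.432 CPM. Over all 75867 nuclei there were 237 UMIs of Phf19, and few of the differences among the non-dividing classes could be resolved. Astrocyte libraries (0.871 to 2.91 CPM) lay above those of excitatory neurons (0 to 0.450 CPM).

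The oligodendrocyte lineage gives 4 gated stages, from OPCs through committed precursors (marked by Bmp4 and Gpr17) and newly formed to mature, myelinating oligodendrocytes. For each step the log2 ratio of CPM was computed over all nuclei and within each library. A gene is called higher or lower where the ratio was at least 0.5 in size, its 95% interval was off 0 and 6 of 6 libraries had the same sign, with at least 100 UMIs in the pair of classes. The same rule over all genes gives the background share called. No p-value is attached, since the libraries are not replicates of a labelled group.

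From OPCs to committed precursors, 0 of the 8 members tested were called, where 6.77% of 12383 genes were higher and 8.26% lower. Ezh2 differed by 0.19 (0.02 to 0.35), higher in 5 of 6 libraries, and Eed by 0.34 (0.12 to 0.55), also in 5 of 6. The median over the members was 0.14 and over all genes 0.01. Phf19 had too few UMIs for the rule in this and every other comparison.

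From committed precursors to newly formed oligodendrocytes, 2 of 7 members tested were lower, where 9.93% of 10536 genes were, and none was higher (5.94%). Ezh1 was lower by a log2 ratio of -0.74 (-1.11 to -0.39), at 18.9 against 31.6 CPM, with libraries from -0.80 to -0.20, and was not called by UMIs per nucleus (-0.37). Mtf2 was lower by -0.50 (-0.69 to -0.32), at 72.8 against 103 CPM, and was no longer called without library 2 (-0.42), library 3 (-0.45) or library 5 (-0.50). Ezh2 was higher in 5 of 6 libraries, with a ratio of 0.59 (0.40 to 0.78), and library 6, with 28 newly formed nuclei, went the other way at -0.19. Without library 6 Ezh2 was called higher at 0.66. Suz12 (-0.44) and Jarid2 (-0.33) were below 0 in 6 of 6 libraries without reaching 0.5 in size. Suz12 was called lower without the top doublet scores (-0.54), at 2000 to 8000 UMIs (-0.60) and without library 2 (-0.56). Most genes lay below 0 in this step, with a median of -0.17. TMM scaling, which moves the median of all genes by 0.15, turned the part of calls that were higher from 37.4% to 55.0%. Under TMM, Ezh2 was at 0.74 and Mtf2 was no longer called.

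Newly formed and mature oligodendrocytes differed in Ezh1, which was higher in the mature class by 0.68 (0.35 to 1.03), at 30.4 against 18.9 CPM and in 6 of 6 libraries. It was the only one of 8 members called higher, where 6.91% of 11431 genes were, and none was lower (4.52%). Without nuclei of the top doublet scores the ratio was 0.70 and the call was lost. Ezh2 differed by 0.21 (0.06 to 0.36) and Jarid2 by 0.33 (0.21 to 0.46), each higher in 6 of 6 libraries and below the size of a call. Ezh1 thus had its lowest level of all classes at the newly formed stage, with values on either side of it above 30 CPM.

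Mature oligodendrocytes against OPCs, the ends of the lineage, differed in Ezh2 by 0.99 (0.86 to 1.12), at 111 against 55.8 CPM, with libraries from 0.81 to 1.16. The lowest mature library, at 95.6 CPM, was above the highest OPC library, at 61.1 CPM. Ezh2 was the only one of 8 members called higher, where 10.9% of 12906 genes were, and none was lower, where 16.5% were. Aebp2 differed by 0.44 (0.31 to 0.57), above 0 in 6 of 6 libraries and not called, and Mtf2 by -0.27 (-0.39 to -0.14), below 0 in 6 of 6, but at 0.25 (0.13 to 0.38) by UMIs per nucleus. Aebp2 was called higher in 4 alternatives: without the top doublet scores (0.50), at 2000 to 8000 UMIs (0.55), under TMM (0.56) and by UMIs per nucleus (0.96). Ezh1 (0.12), Suz12 (-0.14), Jarid2 (0.12) and Eed (0.22) were nearer to 0, and none was called by CPM. By UMIs per nucleus they were at 0.64, 0.38, 0.64 and 0.74 in the same order. The 4 members called higher per nucleus were Ezh2, Aebp2, Ezh1 and Jarid2, where 3697 of 12906 genes were higher and 850 lower. Of 10 replication genes, 4 could be tested. In mature oligodendrocytes 2 of these were called lower, Mcm7 at -1.16 and Tyms at -1.67, while Mcm6 (-0.82) and Pcna (-0.36) were not called. The sum of the 8 neuronal genes was 16083 CPM in OPCs and 12126 CPM in mature oligodendrocytes. The part of RNA of other cells in the Ezh2 difference was not tested. TMM scaling moved the median of all genes by 0.12 and the higher part of calls from 39.8% to 50.03%, and left Ezh2 called at 1.11.

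**Figure D4:**
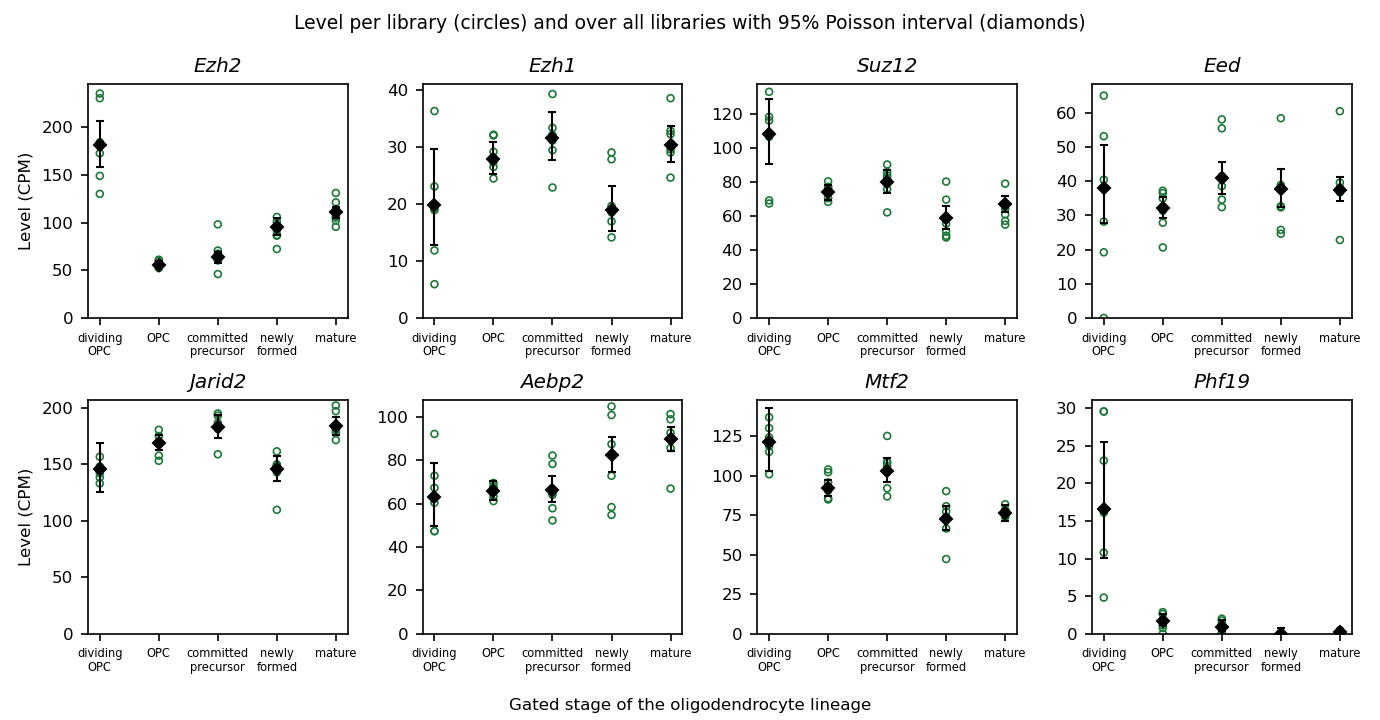
Level (CPM, vertical axes) of 8 PRC2 genes in dividing OPCs, OPCs, committed precursors, newly formed and mature oligodendrocytes (horizontal axes). Circles are libraries, diamonds the level over all libraries and bars the 95% Poisson interval; Ezh2 is at 181 CPM in dividing OPCs, 55.8 in OPCs and 111 in mature oligodendrocytes, Ezh1 dips to 18.9 CPM at the newly formed stage, and Phf19 is near 0 outside dividing OPCs.

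Dividing OPCs (191 nuclei, 12 to 47 a library) were set against OPCs outside the dividing gate. Ezh2 was at 181 CPM (interval 158 to 207) against 55.8 CPM in other OPCs, a log2 ratio of 1.70 (1.48 to 1.92), with libraries from 1.32 to 2.09. The lowest dividing library, at 130 CPM, was above the highest OPC library. Ezh2 was the only one of 8 members called, where 3.31% of 11556 genes were called higher and 2.51% lower. Suz12 was at a ratio of 0.55, above 0 in 4 of 6 libraries, and Mtf2 at 0.40, above 0 in 5 of 6, neither called. Ezh1 was at 19.9 CPM (24 UMIs) against 27.9 CPM, a ratio of -0.49 (-1.15 to 0.10), below 0 in 5 of 6 libraries. Without library 2, the library above 0, the Ezh1 ratio was -0.89 and was called lower. Phf1 had 19.0 CPM (23 UMIs) against 8.26 CPM, higher in 5 of 6 libraries, and was called at 1.23 without library 6, where the dividing OPCs had no Phf1 UMI. Phf19 was at 16.6 CPM (20 UMIs) against 1.74 CPM, a ratio of 3.25 (2.33 to 4.16), higher in 6 of 6 libraries, but its 45 UMIs are under the minimum of the rule. Among replication genes, Mcm6 and Tyms were higher by 1.81 and 1.93, 2 of 4 tested. TMM scaling took the higher part of all calls from 56.9% to 46.7% and left Ezh2 at 1.65.

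OPCs outside the dividing gate could still carry division markers. In those with none of the 16 (2749 nuclei) Ezh2 was at 53.8 CPM (interval 49.6 to 58.2), with 1 marker (472 nuclei) at 58.7 CPM and with 2 or 3 (90 nuclei) at 84.6 CPM (interval 62.1 to 112). Libraries ran from 47.6 to 56.7, from 37.7 to 92.0 and from 38.9 to 176 CPM in the same order. In library 2 the level was 38.9 CPM with 2 or 3 markers and 52.7 CPM with none. The sum of replication genes over the same groups was 53.6, 61.9 and 142 CPM. This split was added after the levels had been seen. The level in OPCs that showed no division marker was near 54 CPM, between those of excitatory neurons and of mature oligodendrocytes. A nucleus can divide with none of the markers counted. The replication genes of this group were near those of all OPCs (58.4 CPM) and above those of excitatory neurons (20.7 CPM). The split therefore does not tell the Ezh2 of resting OPCs from that of dividing ones.

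Other dividing subsets had Ezh2 levels above those of their parent class. Dividing neuroblasts had 254 CPM (interval 223 to 287, 87 nuclei), with libraries 5 and 6 at 689 and 702 CPM and the other 4 between 159 and 313 CPM. Dividing astrocytes had 154 CPM (interval 128 to 183, 69 nuclei), dividing microglia 142 CPM (interval 114 to 176, 53 nuclei) and dividing endothelial cells 115 CPM (interval 96.7 to 136, 76 nuclei). For these subsets single libraries held from 2 to 29 nuclei.

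GABAergic neuroblasts, young neurons of the ventral forebrain marked by Dlx and Sp8 genes, were set against cortical interneurons, a mature GABAergic class. Ezh2 was higher in neuroblasts by 1.28 (1.11 to 1.45), at 63.3 against 26.0 CPM, and in 6 of 6 libraries (0.94 to 1.53). The lowest neuroblast library, at 51.4 CPM, was above the highest interneuron library, at 28.9 CPM. Jarid2 was higher by 0.51 (0.42 to 0.61), at 180 against 126 CPM. It fell under the size of a call without library 2 (0.49) or library 3 (0.40), by the median over libraries (0.49) and by UMIs per nucleus (0.18). Ezh2 and Jarid2 were 2 of 8 members, where 8.62% of 13205 genes were called higher and 4.82% lower. Mtf2 (0.41) and Eed (0.36) were above 0 in 6 of 6 libraries and not called. Ezh1 was level, at 33.1 and 32.6 CPM, with a ratio of 0.02 (-0.19 to 0.24). Phf1 was at 9.22 against 15.2 CPM, a ratio of -0.72, lower in 5 of 6 libraries. It was called lower at -0.88 both without library 4 and with TMM scaling. The same held with a stricter gate (-0.925), at 2000 to 8000 UMIs (-1.03) and by UMIs per nucleus (-1.05). The sum of the 8 neuronal genes was 25642 CPM in neuroblasts and 35641 CPM in interneurons, and the part of RNA of other cells was not tested. With TMM, which moves the median of all genes by -0.16, the higher part of calls was 34.1% in place of 64.1%, Ezh2 was at 1.12 and Jarid2 at 0.35 was not called.

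Astrocytes and excitatory neurons were compared as the largest glial and the largest neuronal class. By CPM, 6 of 8 members were higher in astrocytes, but so were 43.7% of 15599 genes, and 16.6% were lower. The members called were Ezh2 (1.88, interval 1.76 to 1.99), Suz12 (1.16), Ezh1 (0.67), Eed (0.64), Jarid2 (0.61) and Aebp2 (0.51), each in 6 of 6 libraries. Aebp2 was not called without library 5 (0.48), at 2000 to 8000 UMIs (0.41) or by the median over libraries (0.48), and Eed was not called at 2000 to 8000 UMIs (0.45). Phf1, at 0.50 with 6 of 6 libraries above 0, was not called, and its value ran from -0.84 by UMIs per nucleus through 0.05 at 2000 to 8000 UMIs and 0.08 under TMM to 0.58 without the top doublet scores. Mtf2 was lower in 6 of 6 libraries at -0.39 (-0.47 to -0.31), not called. The median over members was 0.63 and over all genes 0.45. An excitatory nucleus held 10427 UMIs on average and an astrocyte nucleus 4123, so a gene of equal count per nucleus has a higher CPM in astrocytes. By UMIs per nucleus, 6 members were lower in astrocytes, and Ezh2 alone was higher, at 0.54. By that measure 10007 of the 15599 genes were also called lower, and 1517 higher. TMM scaling, which moves the median of all genes by -0.41 and the higher part of calls from 72.4% to 51.2%, left Ezh2 (1.46) and Suz12 called higher and Mtf2 (-0.80) lower. Ezh2 was the one member above 0 and called under all 3 scalings, at 65.1 CPM in astrocytes (55.4 to 75.4) and 17.7 CPM in excitatory neurons (15.4 to 19.2).

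In 2 comparisons within a class, no member was called by CPM. Astrocytes with 2 or more Gfap UMIs (685 nuclei), the filament gene of reactive and white matter astrocytes, were set against those with none (3158 nuclei). Of 8 members 0 were called, where 3.22% of 11820 genes were higher and 1.41% lower, and Ezh2 was at 60.7 and 66.3 CPM, a ratio of -0.13 (-0.35 to 0.09). Gfap-rich nuclei held more UMIs (5439 against 3792 on average), and per nucleus Suz12 and Mtf2 were called higher at 0.51 each. By that measure 3864 of the 11820 genes were also called higher, and 3 lower. Indirect against direct pathway striatal neurons, which carry D2 and D1 dopamine receptors, also gave 0 of 8, where 1.41% of 11278 genes were higher and 1.37% lower. Ezh2 was at 31.5 and 34.5 CPM there, with a ratio of -0.13 (-0.36 to 0.09), and Ezh1 at 23.5 and 27.1 CPM. With TMM the Ezh2 ratio for Gfap was -0.23 (-0.45 to -0.01) and per nucleus 0.39, neither of call size. TMM scaling took the higher part of calls for Gfap from 69.5% to 42.3%, with a shift of -0.10 in the median of all genes.

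Other PRC2 partners and the demethylases that remove H3K27me3 were read from a set list: Rbbp4, Rbbp7, Epop, Lcor and Lcorl (5 of 6 listed partners, Ezhip being not analysed here), and Kdm6a and Kdm6b. Lcorl, whose product binds PRC2, was at 297 CPM in OPCs, 768 CPM in committed precursors, 584 CPM in newly formed and 289 CPM in mature oligodendrocytes. It was called higher in committed precursors (1.37, interval 1.31 to 1.43) and lower in mature against newly formed oligodendrocytes (-1.01), in 6 of 6 libraries each, where 6.77% of genes were higher and 4.52% lower. Of the 4 partners tested at each step, no other was called there. In mature oligodendrocytes against OPCs, Rbbp4, a histone chaperone of the core, was higher by 0.52 (0.38 to 0.65), 1 of 4 partners where 10.9% of genes were higher, and Rbbp7 was below 0 in 6 of 6 libraries at -0.46, not called.

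The demethylase Kdm6b was at 37.2 CPM in OPCs, 71.8 CPM in committed precursors, its highest class, 48.7 CPM in newly formed and 32.0 CPM in mature oligodendrocytes. By CPM each of the 3 steps was called, at 0.95 (6.77% of genes higher), -0.56 (9.93% lower) and -0.60 (4.52% lower). The middle step was smaller per nucleus, at 298 against 338 UMIs in 1000 nuclei, and the other scalings were not run for partners and demethylases. Kdm6a, the other H3K27 demethylase, was higher in mature oligodendrocytes than in newly formed (0.59, where 6.91% of genes were higher) and than in OPCs (0.72, where 10.9% were), at 168 CPM against 102.04 CPM in OPCs, with mature libraries from 94.3 to 210 CPM. A list of 10 textbook Polycomb targets (Hox genes, Gata4, Gata6, Pax3 and Cdkn2a) could not be tested in any of the 9 comparisons: 0 genes reached the UMI minimum. Their summed level was 0.206 CPM in newly formed oligodendrocytes and 14.1 CPM in ependymal cells, the highest class.

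Genes whose levels followed those of the catalytic pair most closely over the 18 classes were taken by Pearson r of log2(CPM + 1), among 13036 genes. For Ezh2 these were G2e3 (0.914), Trim59 (0.860), Gle1 (0.819), Smc4 (0.818) and Topbp1 (0.803). Of these, G2e3, Smc4 (a condensin subunit) and Topbp1 (a DNA replication protein) were highest in dividing nuclei, and Trim59 and Gle1 in mature oligodendrocytes. For Ezh1 they were Slc16a9 (0.919), Rabep2 (0.879), Nqo2 (0.876), Qsox1 (0.873) and Cul7 (0.869), which were highest in endothelial cells or fibroblasts. Among the members, Eed and Suz12 had an r of 0.73, Jarid2 and Suz12 0.70, Ezh1 and Phf1 0.67, and both Ezh2 and Phf19 0.65 with Suz12, while Aebp2 and Mtf2 had -0.43. These are descriptions over 18 classes of the same 6 libraries.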

How the data were processed

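The deposited file holds raw UMI counts, which the authors joined over 6 libraries in 1 matrix; its header names Cell Ranger and the submitters' processing notes Cell Ranger 2.1.1 and mm10, while the study's methods describe STARsolo on GRCm38. Intron counting is not stated in these sources. Of 75878 barcodes, 11 with 10% or more mitochondrial UMIs were removed, and no other depth or doublet filter was applied. Nuclei were gated by mean scaled marker level: at least 3 markers detected, a lead of 0.3 over the next list, and no unrelated list above 0.5 of the leading score. Dividing nuclei needed 4 of 16 markers and took priority, and subsets needed 2 markers. Gate thresholds were set after seeing the data. Members and lists were chosen with earlier results of these data known, and named genes are all members plus set lists of partners, demethylases, replication genes and targets. Counts were summed per class and library and divided by the class total. Intervals are exact (Poisson, Clopper-Pearson, conditional binomial; 95%), and a count of 0 allows up to 3 counts. UMIs of 1 library are not independent samples, so intervals cover counting error only. The study's Wilcoxon test over nuclei was not used. Gene intervals are from GENCODE on GRCm38. Analyses used Python 3.11.15, numpy 2.4.6, scipy 1.17.1, pandas 2.3.3, scanpy 1.11.5 and edgeR 4.0.16 (for TMM factors only). The calling rule was run on simulated Poisson counts without added spread between libraries, which cannot test the rule against such spread.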

Additional observations from a re-analysis of the deposited data

How the results depend on the processing

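No paired analysis was possible because the replicate numbers of the mice cannot be tied to libraries. This limit concerns WT against Npc1-/- mice only. Classes could be paired within each of the 6 libraries, and were set against each other there by the sign of the ratio. A paired test of classes over the libraries was not run. Alternatives were a stricter gate (1 more marker), omission of the top 10% of doublet scores, nuclei of 2000 to 8000 UMIs, TMM scaling, UMIs per nucleus, the median over libraries and omission of each library. The counts below were not redone for the median over libraries. By it, Jarid2 in neuroblasts over interneurons (0.49) and Aebp2 in astrocytes over excitatory neurons (0.48) were under call size. Newly formed over committed precursors gave 0 higher and 2 lower as reported. Per nucleus the counts were 2 higher and 0 lower, with 1 lower under the stricter gate or TMM. Without the top doublet scores or at 2000 to 8000 UMIs, 3 were lower (Suz12 added). With a library left out, 0 to 1 were higher and 1 to 2 lower. Of all 10536 genes, 626 were higher and 1046 lower by CPM, 833 and 683 under TMM, and 1516 and 398 per nucleus. For mature over newly formed oligodendrocytes, 1 higher became 0 without the top doublet scores. Mature oligodendrocytes over OPCs went from 1 higher to 2 (Aebp2 added) without top doublet scores, at 2000 to 8000 UMIs or under TMM, and to 4 per nucleus. Of all 12906 genes, 1408 were higher by CPM, 1678 under TMM and 3697 per nucleus. Dividing over other OPCs gave 1 higher, 2 per nucleus, and 1 to 2 higher and 0 to 1 lower with a library left out. Of all 11556 genes, 383 were higher by CPM and 1377 per nucleus. Neuroblasts over interneurons gave 2 higher and 0 lower, and 1 higher under TMM and per nucleus. There, 1 was lower under the stricter gate, at 2000 to 8000 UMIs, under TMM and per nucleus. Leaving out a library gave 1 to 2 higher and 0 to 1 lower. Of all 13205 genes, 1138 were higher and 637 lower by CPM, 562 and 1088 under TMM, and 277 and 2053 per nucleus. Astrocytes over excitatory neurons went from 6 higher and 0 lower to 2 and 1 under TMM and to 1 and 6 per nucleus. There, 4 were higher at 2000 to 8000 UMIs (Eed and Aebp2 lost). The number was 7 under the stricter gate or without the top doublet scores (Phf1 added) and 5 to 7 with a library left out. Of all 15599 genes, 6812 were higher and 2595 lower by CPM, 4319 and 4117 under TMM, and 1517 and 10007 per nucleus. Gfap-rich over Gfap-negative astrocytes went from 0 higher to 1 under the stricter gate, 2 per nucleus and 0 to 1 with a library left out. Of all 11820 genes, 381 were higher by CPM and 3864 per nucleus. Counts of all genes are given here for the scalings only, so other changes in count are not read as particular to the members.

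A ratio turned to the other sign, with its interval off 0, only in the counts per nucleus, where the mean UMIs of the classes differ. These were astrocytes over excitatory neurons for Ezh1 (-0.67), Eed (-0.70), Suz12 (-0.18), Jarid2 (-0.73), Aebp2 (-0.83) and Phf1 (-0.84), and Gfap-rich over Gfap-negative astrocytes for Suz12 (0.51), Mtf2 (0.51), Ezh1 (0.48), Ezh2 (0.39) and Jarid2 (0.38). The others were Suz12 (0.38) and Mtf2 (0.25) in mature oligodendrocytes over OPCs, Aebp2 (0.47) and Jarid2 (0.33) in dividing over other OPCs, Ezh1 (-0.31) and Aebp2 (-0.23) in neuroblasts over interneurons, and Jarid2 (-0.16) in indirect over direct pathway neurons. Ratios whose interval included 0 also changed sign under other settings. The causes of the other changes were not tested. The Ezh2 ratio kept its sign and its call under all alternatives for mature oligodendrocytes over OPCs, dividing over other OPCs, neuroblasts over interneurons and astrocytes over excitatory neurons. Its ranges were 0.93 to 1.51, 1.61 to 2.24, 0.95 to 1.41 and 0.54 to 1.96. Phf1 and Phf19 are limited by depth.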

Other observations

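Libraries could not be tied to mice, and 2 gates differed widely in size between them. The newly formed oligodendrocyte gate held 218, 268, 52, 47, 183 and 28 nuclei in libraries 1 to 6, and the mature gate 569, 648, 115, 119, 380 and 80. OPC gates held 593, 728, 601, 517, 523 and 349 nuclei. The Ezh2 level of the mature gate was 107, 105, 121, 95.6, 131 and 102.1 CPM in the same order, and the Ezh1 share 21.7%, 21.6%, 24.1%, 25.5%, 19.7% and 19.4%. No group was assigned to any of these libraries.

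The 36399 nuclei that passed no gate had 31.9 CPM of Ezh2 (31.2 to 32.6) and 33.1 CPM of Ezh1 (32.4 to 33.9), an Ezh1 share of 50.9% (50.1 to 51.7), with libraries from 49.3% to 52.8%. Within excitatory neurons, Ezh2 was at 15.4 CPM in upper layer, 22.0 CPM in layer 5 and 22.7 CPM in layer 6 nuclei.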
